A study of Mus musculus with 34 samples.

Results

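The genes described here make the enzymes and granule proteins with which endocrine cells turn hormone precursors into stored hormone. They are 10 of the 48709 genes in the deposited count table, taken by symbol, and all 10 were among the 17616 genes tested. Pcsk1 and Pcsk2 encode prohormone convertases, Cpe a carboxypeptidase, Pcsk1n and Scg5 small partners of the convertases, Chga, Chgb, Scg2 and Scg3 the granins, and Ptprn a membrane protein of the granule. RNA-seq had been carried out on whole pancreatic islets of mice with the genotype label RIP-DTR HTZ, which all groups carry, the controls included: the rat insulin promoter drives the receptor for diphtheria toxin (DT), so that DT removes insulin-producing cells. Streptozotocin (STZ), a toxin that enters beta cells through their glucose transporter, was the other ablating agent, at 75 mg/kg. STZ HFD (n = 4) and DT HFD (n = 3) libraries, on a diet labelled HFD, and STZ SD (n = 4) and DT SD (n = 4) libraries, on a diet labelled SD, were taken 10 weeks after ablation. The untreated CTRL HFD (n = 4) and CTRL SD (n = 3) libraries on those diets have a label of 10 weeks with no ablation. DT libraries were also taken 30 days (DT 30 DPA, n = 4) and 5 days (DT 5 DPA, n = 4) after ablation, against untreated CTRL libraries (n = 3) that have no time or diet in their labels. No label gives an age, or says whether islets of several mice were pooled or replicates came from separate mice, so the p-values below measure the spread between these samples.

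Peptide hormones are made as larger precursors and sorted into dense-core secretory granules. Inside the granule, the convertases cut the precursor after pairs of basic residues, and carboxypeptidase E then trims the basic residues left at the cut ends. In the beta cell both convertases act on proinsulin. In the alpha cell the product of Pcsk2 releases glucagon from proglucagon. The Pcsk1n product, proSAAS, inhibits the Pcsk1 convertase, and the Scg5 product helps the Pcsk2 convertase to mature. Granins are acidic proteins that aggregate with hormone in the forming granule and are also cut into peptides of their own. The Ptprn product, also called IA-2, spans the granule membrane and is an autoantigen in autoimmune diabetes.

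Promoter sequence is shown for 5 of the genes, because 3 of them share a motif that few promoters hold and the other two do not. Promoters were taken as the 250 bases before the gene's start in RefSeq on GRCm38.p6 and are printed 5′ to 3′ on the gene's strand. The table used here has an entry for 9 of the 10 genes. GENCODE M21 starts Scg5, Ptprn and, of the 5 shown, Pcsk1, Chgb and Scg2 further upstream than RefSeq does. For Pcsk1 the sequence therefore stops at the GENCODE start, after 219 bases. For Chgb and Scg2, whose motif lies inside the GENCODE gene, only 30 bases around it are shown. Capitals mark TGACGTCA, the palindromic cyclic AMP response element (CRE), and its half-site TGACG. The Pcsk1 sequence lies at chr13:75089607-75089825 on the plus strand, that of Chgb at chr2:132781559-132781588 on the plus strand and that of Scg2 at chr1:79440076-79440105 on the minus strand. The Chga sequence lies at chr12:102554691-102554940 on the plus strand, and that of Pcsk1n at chrX:7919572-7919821 on the plus strand.
Pcsk1: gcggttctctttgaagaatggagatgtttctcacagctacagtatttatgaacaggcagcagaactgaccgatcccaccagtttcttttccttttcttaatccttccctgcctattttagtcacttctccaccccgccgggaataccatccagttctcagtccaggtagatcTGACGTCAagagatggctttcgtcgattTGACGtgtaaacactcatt
Chgb: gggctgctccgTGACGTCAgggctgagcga
Scg2: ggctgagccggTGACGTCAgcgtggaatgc
Chga: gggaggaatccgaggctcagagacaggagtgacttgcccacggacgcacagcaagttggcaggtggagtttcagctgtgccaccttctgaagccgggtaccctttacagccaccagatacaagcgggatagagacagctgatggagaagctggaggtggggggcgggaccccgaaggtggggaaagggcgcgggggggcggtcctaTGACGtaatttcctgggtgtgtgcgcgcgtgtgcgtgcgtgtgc
Pcsk1n: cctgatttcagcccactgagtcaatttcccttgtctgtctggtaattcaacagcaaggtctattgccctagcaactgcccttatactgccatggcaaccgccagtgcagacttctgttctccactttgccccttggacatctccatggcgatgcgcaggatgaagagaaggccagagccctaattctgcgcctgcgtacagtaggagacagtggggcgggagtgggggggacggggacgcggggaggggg

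The full CRE stood 78 to 71 bases before the RefSeq start of Pcsk1, 72 to 65 before that of Chgb and 68 to 61 before that of Scg2. Over all 32851 promoters of the same length, 1.55% held it on either strand. A CRE holds a half-site on each strand. Counting those, the half-site was found in 8 of the 9 genes with an entry (Ptprn at the first of 2 starts), against 17.8% of all promoters, and Chga held it 44 to 40 bases before the start. In Pcsk1n these letters were not in the window. In Ptprn, as in Chgb and Scg2, they lay inside the GENCODE gene. The GC box GGGCGG, searched on both strands, was found in 32.7% of all promoters, and Pcsk2 held it 7 times, in part overlapping. A match is a description of the letters only, and Cpe is named without a promoter here.

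**Figure D1:**
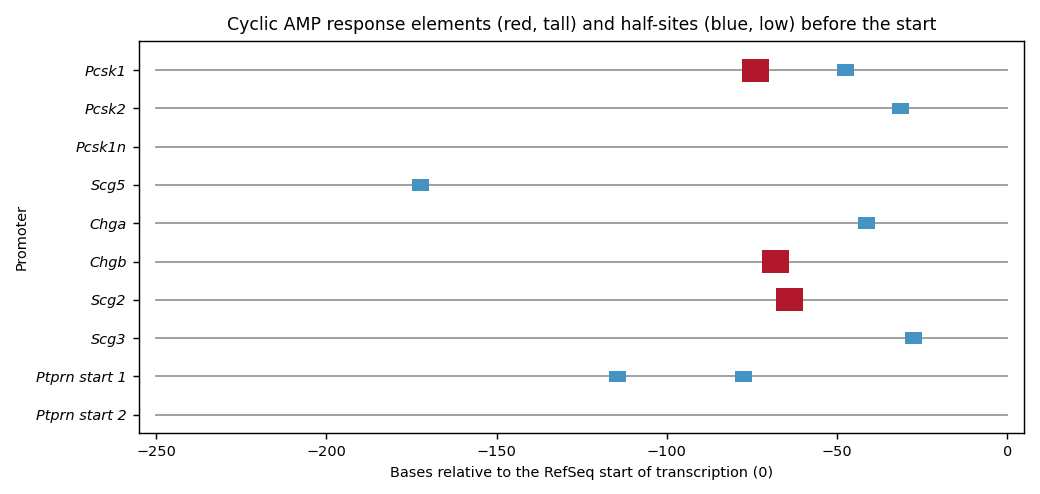
Position of the cyclic AMP response element (tall red blocks) and its half-site (low blue blocks, those inside a full element not drawn) along the 250 bases before each RefSeq start, with 0 at the start. Pcsk1, Chgb and Scg2 hold the full element between 78 and 61 bases before the start, and Pcsk1n holds neither.

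All 10 genes were expressed in every library. By the authors' deposited TPM (a level scaled by transcript length and library total), Chga ranked first of the 10 in 33 of 33 libraries, with a median of 5120 TPM, which was rank 22 among all genes. Of the other granins, median TPM was 1883 for Scg2, 695 for Chgb and 669 for Scg3. Median TPM was 1204 for Cpe, 513 for Scg5 and 441 for Pcsk1n. Among the convertases Pcsk2 had a median of 404 TPM and Pcsk1 of 104 TPM. Ptprn, with a median of 72.8 TPM, was the lowest of the 10 in 28 libraries, and Pcsk1 was in the other 5. Of the 10 genes 3 lie on chromosome 2 of GRCm38 by GENCODE M21 (Scg5 at 113776362 to 113829121, Chgb at 132781278 to 132795079 and Pcsk2 at 143546156 to 143816285). Antisense genes overlap Pcsk2 and Ptprn and could share reads with them. Their counts were small beside the gene's own, at most 0.553% for Pcsk2os1 against Pcsk2.

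Each of the genes varied several-fold between libraries. Values below are CPM, counts scaled to a common library size with TMM factors, and compare a gene between libraries rather than genes with each other. The highest library stood 4.32-fold (Pcsk1n) to 10.9-fold (Pcsk1) above the lowest. CTRL replicate 2 was the lowest library for 7 genes and DT 5 DPA replicate 1 for the other 3. DT SD replicate 3 was the highest for 6 genes. Group means were highest in DT SD for 7 genes (Pcsk1, Pcsk2, Cpe, Scg5, Chgb, Scg2 and Scg3) and in DT 30 DPA for 3 (Pcsk1n, Chga and Ptprn). They were lowest in DT 5 DPA for 8 genes and in CTRL for Pcsk1 and Ptprn. Pcsk1 averaged 117 ± 54.1 CPM in STZ HFD, 125 ± 60.2 in DT HFD and 164 ± 19.6 in CTRL HFD libraries (SD, n as above). On the SD diet it averaged 169 ± 76.6 CPM in STZ SD, 365 ± 55.3 in DT SD and 235 ± 8.67 in CTRL SD libraries. At the early times it averaged 262 ± 48.9 CPM in DT 30 DPA, 107 ± 23.5 in DT 5 DPA and 105 ± 64.1 in CTRL libraries. Chga had a flatter order, with 4246 ± 2029 CPM in STZ HFD, 2987 ± 1008 in DT HFD and 6130.4 ± 1734 in CTRL HFD libraries. Its means on the SD diet were 7055 ± 2949 CPM in STZ SD, 5639 ± 789 in DT SD and 6271 ± 885 in CTRL SD libraries. They were 7308 ± 1962 CPM in DT 30 DPA, 2671 ± 899.9 in DT 5 DPA and 4339 ± 2247 in CTRL libraries. When the 9 groups were put in order of their means, neighbouring groups overlapped in 8 of 8 neighbouring pairs for 8 genes and in 7 of 8 for Chgb and Scg3. Most neighbours in that order thus do not differ beyond their spread.

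**Figure D2:**
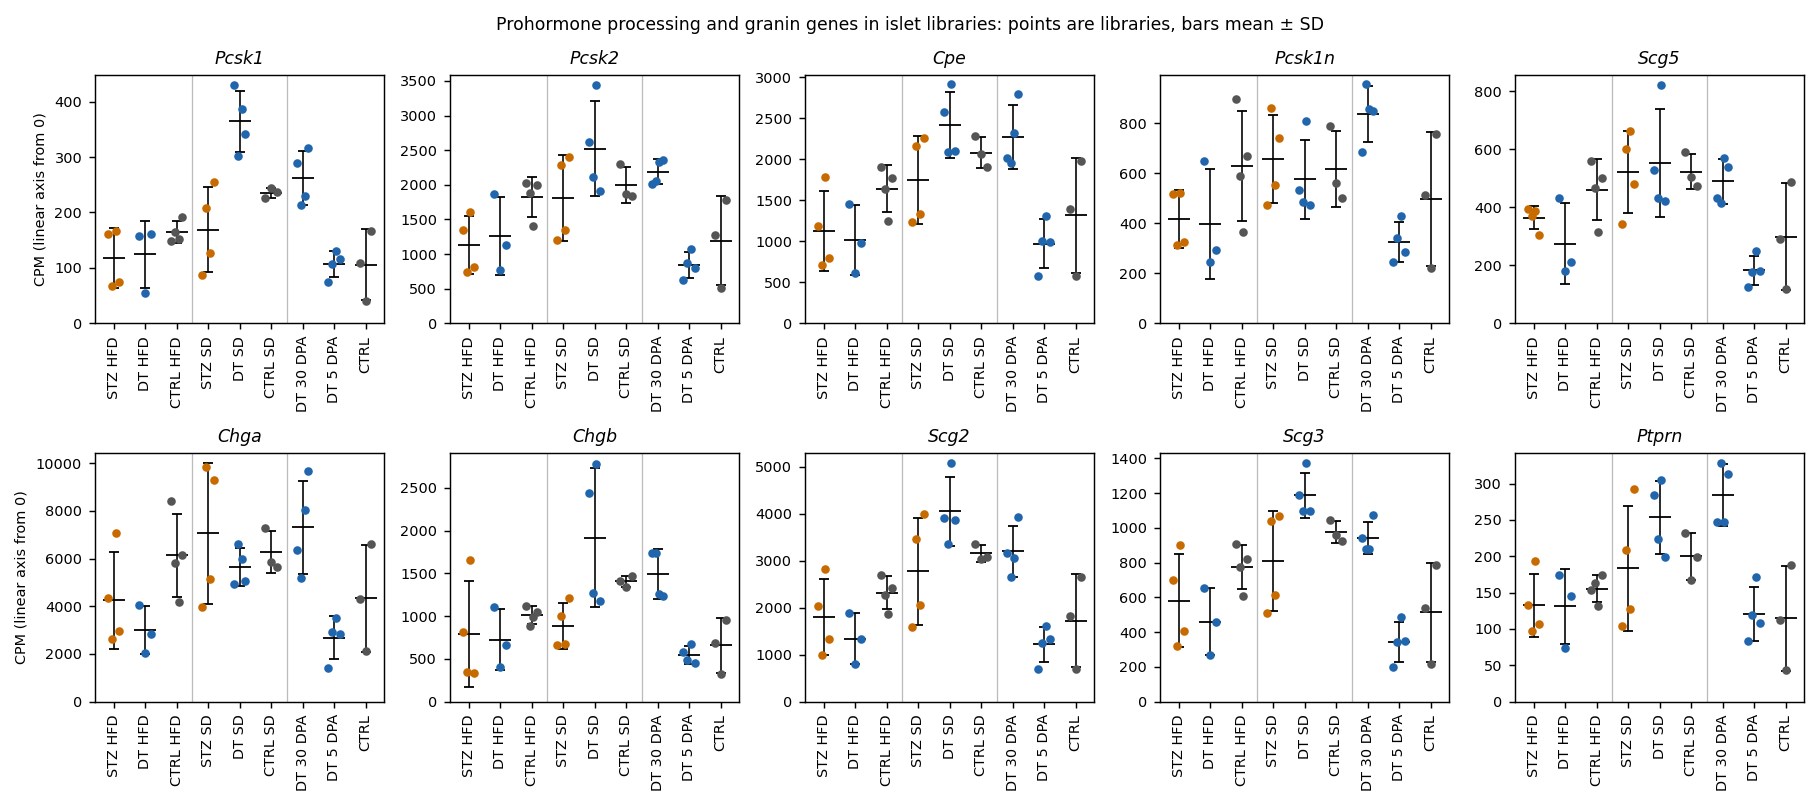
Level of each gene in CPM (linear axis from 0) in 33 libraries. Points are libraries, orange for STZ, blue for DT and grey for CTRL, and bars are the group mean ± SD. DT 30 DPA libraries lie above all DT 5 DPA libraries in every panel, and CTRL replicate 2 is the lowest point of 7 panels.

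Libraries held 11083117 to 18918348 counts, and the 10 genes took 0.346% to 2.13% of them, so counting error is small beside the spread between libraries. All groups had the insulin, glucagon and somatostatin transcripts that define islets, with a summed level of 10 beta-cell markers of 30080.3 to 308641 CPM. RNA of other tissues varied between libraries of the same group. Summed enterocyte markers passed 1000 CPM in 8 libraries (DT HFD replicate 1, STZ SD replicates 1 and 4, DT 30 DPA replicate 2, DT 5 DPA replicates 1, 2 and 4, and CTRL replicate 2). In STZ HFD replicate 4 acinar markers summed to 793206 CPM. DT 30 DPA replicate 2 held 858 CPM of Dbh and 382 CPM of Th, markers of sympathetic neurons and adrenal chromaffin cells, which have granins of their own. Where the number of the 10 genes called changes without these libraries, both counts are given.

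At day 30 after DT all 10 genes were higher than at day 5, by 2.34-fold (Cpe) to 2.74-fold (Scg3), with no overlap between the groups in any of the 10. The change covered convertases, their partners, granins and Ptprn alike. By edgeR's quasi-likelihood test with Benjamini-Hochberg adjustment over 17616 genes, 30.5% of genes were called at an adjusted p below 0.05 in either direction and 16.5% were called higher in DT 30 DPA. The groups did not overlap for 33.3% of all genes tested. The median log2 fold change was 1.39 over the 10 genes and 0.02 over all genes.

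Pcsk1 had 288, 214, 229 and 317 CPM in DT 30 DPA libraries, against 74.9, 107, 130.1 and 117 CPM in DT 5 DPA libraries, a difference of 1.29 on the log2 scale (SE 0.37, adjusted p = 0.0108). For Pcsk2 the levels were 2016, 2049, 2333 and 2363 CPM in DT 30 DPA and 621, 867, 1072 and 792 CPM in DT 5 DPA libraries, for a difference of 1.39 on the log2 scale (SE 0.32, adjusted p = 0.00265). In both convertases the lowest library at day 30 stood well clear of the highest at day 5. Cpe, which trims the ends that the convertases leave, had 2019.9, 1948, 2315 and 2800.0 CPM in DT 30 DPA and 578, 998, 1309 and 991 CPM in DT 5 DPA libraries, a difference of 1.23 on the log2 scale (SE 0.33, adjusted p = 0.00678). DT 5 DPA replicate 3 was the highest and replicate 1 the lowest of its group for all 3 enzymes.

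The inhibitor gene Pcsk1n had 686, 956, 856 and 849 CPM in DT 30 DPA and 243, 340.1, 428 and 286 CPM in DT 5 DPA libraries, for a difference of 1.37 on the log2 scale (SE 0.33, adjusted p = 0.00363). Scg5, the partner of the Pcsk2 convertase, had 432, 416, 571 and 541 CPM in DT 30 DPA and 126, 178, 249 and 180.1 CPM in DT 5 DPA libraries, and its log2 fold change was 1.42 (SE 0.32, adjusted p = 0.00213), the smallest adjusted p of the 10. For both partners every day-30 library lay above every day-5 library.

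Among granins, Chga had 6347, 5185, 8026 and 9675 CPM in DT 30 DPA and 1399.7, 2925, 3519.9 and 2839 CPM in DT 5 DPA libraries, a difference of 1.45 on the log2 scale (SE 0.37, adjusted p = 0.00485). Chgb had 1743, 1738, 1254 and 1230.3 CPM in DT 30 DPA and 585, 481, 675 and 449 CPM in DT 5 DPA libraries, for a difference of 1.45 on the log2 scale (SE 0.41, adjusted p = 0.00913). The libraries that were high differed between these 2 granins: at day 30, Chga was highest in replicate 4 and Chgb in replicate 1. Scg2, the source of secretoneurin, had 3169, 2649, 3056 and 3943 CPM in DT 30 DPA and 694, 1238, 1600.3 and 1337 CPM in DT 5 DPA libraries (log2 fold change 1.40, SE 0.36, adjusted p = 0.00526). Scg3, which binds Chga to the granule membrane, had 941, 877, 880.4 and 1072 CPM in DT 30 DPA and 199, 343, 486 and 347 CPM in DT 5 DPA libraries (log2 fold change 1.46, SE 0.34, adjusted p = 0.00266). For both, DT 5 DPA replicate 1 lay below the rest of its group. Ptprn had 247, 328, 247 and 313 CPM in DT 30 DPA and 82.8, 119.5, 172 and 108 CPM in DT 5 DPA libraries, a difference of 1.24 on the log2 scale (SE 0.34, adjusted p = 0.00832). Its highest day-30 library was replicate 2, the one that also held Dbh and Th.

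Markers of several cell types moved between the same libraries. Beta-cell markers summed to 126969 to 308641 CPM in DT 30 DPA and 32616 to 122665 CPM in DT 5 DPA libraries, and 9 of 10 were called higher. Of 8 alpha-cell markers 6 were called higher and 1 lower, with sums of 31368 to 43180.4 CPM in DT 30 DPA and 9991 to 16063 CPM in DT 5 DPA libraries. Macrophage markers summed to 472 to 1057 CPM in DT 30 DPA and 4863 to 7261 CPM in DT 5 DPA libraries, and all 9 tested of 10 listed were called lower. Mesenchymal markers summed to 837 to 985 CPM in DT 30 DPA and 2707 to 3465 CPM in DT 5 DPA libraries, with 4 of 6 called lower. Enterocyte markers ranged over 61.2 to 3429 CPM in DT 30 DPA and 27.0 to 4145 CPM in DT 5 DPA libraries, with 0 of 10 called. Of 8 sympathetic or chromaffin markers, 6 were called higher, with sums of 86.6 to 3159.6 CPM in DT 30 DPA and 39.0 to 177 CPM in DT 5 DPA libraries. Neuron markers summed to 260.4 to 2078 CPM in DT 30 DPA, the highest in replicate 2, and 95.4 to 278 CPM in DT 5 DPA libraries, with 5 of 5 called higher. Delta-cell markers summed to 1973 to 7295 CPM in DT 30 DPA and 363 to 2204 CPM in DT 5 DPA libraries, with 3 of 4 called higher. The part of these cell types in the result was not tested, and in whole islets fewer cells of a type and less RNA per cell cannot be told apart. Leaving out any 1 library kept all 10 genes called, DT 30 DPA replicate 2 included. Without the libraries rich in enterocyte RNA, which leaves 3 DT 30 DPA libraries and 1 DT 5 DPA library, 0 of 10 genes were called, with log2 fold changes of 0.64 (Ptprn) to 1.18 (Chga), and 4.93% of all genes were. The lone library is then assumed to vary like the other groups.

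Other genes of the secretory pathway were described with 4 lists. Of 24 other granule cargo and membrane proteins, 19 were called higher and 0 lower in DT 30 DPA against DT 5 DPA, with a median log2 fold change of 1.39. Examples, with their log2 fold changes, are Resp18 (1.62, adjusted p = 0.000791), a luminal granule protein, the vesicle GTPase gene Rab3a (1.50, adjusted p = 0.000952) and the calcium sensor gene Syt7 (1.41, adjusted p = 0.00105). Iapp and Slc30a8 of that list are also beta-cell markers, and Slc18a2 is also a chromaffin marker. Of 20 other processing enzymes, 4 were called higher and 8 lower (median -0.33). The lysosomal proteases led the falls, with a log2 fold change for Ctsd of -1.91 (adjusted p = 4.21e-09) and Ctsb at -1.72 (adjusted p = 4.88e-07), followed by the aminopeptidase gene Rnpep at -1.39 (adjusted p = 3.4e-06). Of 11 tested transcription factors of endocrine secretory genes, 8 were called higher, led by Isl1 (1.55, adjusted p = 0.00161) and Pax6 (1.47, adjusted p = 0.00169). The 1 called lower was Rest (-1.23, adjusted p = 0.0023), a repressor of neuronal and endocrine genes. Of 8 hormone precursors, 5 were called higher, among them Gcg (1.42, adjusted p = 0.00562) and Sst (2.24, adjusted p = 0.0171).

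Against untreated CTRL libraries neither early group gave a called gene among the 10. These comparisons share the CTRL libraries with each other and the DT libraries with the comparison above, so their values are given side by side only. At day 5 the log2 fold changes ran between -0.71 (Scg5) and 0.08 (Ptprn), 8 of them below 0, with a median of -0.50 over the 10 genes and -0.05 over all genes. Of all genes tested 5.39% were called. The count of 0 called by edgeR stands beside 1 of the 10 (Scg5) at an unadjusted p below 0.05, as were 19.1% of all genes. DESeq2 called 0 of the 10. Pcsk1 had 109, 39.3 and 167 CPM in the 3 CTRL libraries, around the DT 5 DPA values, and the 95% interval of its log2 fold change was -0.78 to 0.84. CTRL replicate 2 was the lowest CTRL library for every gene, with 2109.6 CPM of Chga, and was one of the libraries rich in enterocyte RNA. Without it 7.02% of all genes and 1 of the 10 were called, Scg5 with a log2 fold change of -1.09 (adjusted p = 0.0357).

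At day 30 all 10 genes were above their CTRL level, with log2 fold changes of 0.71 (Scg5) to 1.32 (Pcsk1) and a median of 0.88, against -0.02 over all genes, but adjusted p was 0.0601 to 0.237 and none passed. Of all genes tested 0.233% were called. Pcsk1 (log2 fold change 1.32, SE 0.41, adjusted p = 0.0695) and Ptprn (log2 fold change 1.31, SE 0.38, adjusted p = 0.0601) had the smallest adjusted p. Their CTRL levels were 109, 39.3 and 167 CPM for Pcsk1 and 112, 43.4 and 188 CPM for Ptprn, all below the DT 30 DPA libraries. The groups did not overlap for 5 of the 10 genes and for 12.4% of all genes. By unadjusted p, 8 of the 10 were below 0.05, as were 25.3% of all genes, and DESeq2 called 3 (Pcsk1, Chgb and Ptprn). Single CTRL libraries moved this result. Without CTRL replicate 3 edgeR called 9 of 10, with Chga the exception, and 23.7% of all genes. Without CTRL replicate 2, rich in enterocyte RNA, it called 0 of 10 and 0% of all genes. The log2 fold changes were then 0.33 (Scg5) to 0.92 (Pcsk1). Without all libraries rich in enterocyte RNA they were 0.32 (Pcsk1n) to 1.00 (Pcsk1), again with 0 of 10 and 0% of all genes called. Beta-cell markers summed to 126969 to 308641 CPM in DT 30 DPA and 44889 to 147773 CPM in CTRL libraries, with 0 of 10 called. Sympathetic or chromaffin markers summed to 86.6 to 3159.6 CPM in DT 30 DPA and 25.2 to 77.5 CPM in CTRL libraries, with 1 of 8 called higher. Neuron markers summed to 260.4 to 2078 CPM in DT 30 DPA and 83.0 to 243 CPM in CTRL libraries, and lymphocyte markers to 209 to 477 CPM in DT 30 DPA and 240.4 to 1754 CPM in CTRL libraries, with none of either called. The part of these cells in the difference was not tested. At day 5 against CTRL, 4 of 20 other processing enzymes were called higher, led by Ctsd (1.99, adjusted p = 1.85e-08), and Cpm (-1.07, adjusted p = 0.0125) was called lower. All 9 tested macrophage markers were called higher in that comparison.

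At 10 weeks on the SD diet none of the 10 genes was called against CTRL SD after either way of ablation. DT SD against CTRL SD gave log2 fold changes of -0.15 (Chga) to 0.63 (Pcsk1), 8 above 0, with 0 called by edgeR, 0 at an unadjusted p below 0.05 and 0 by DESeq2, where 0.0341% of all genes were called. Pcsk1 had 429, 302, 387 and 341 CPM in DT SD libraries and 226, 244 and 236 CPM in CTRL SD libraries, which did not overlap. Its log2 fold change was 0.63 (SE 0.40, adjusted p = 0.705), with a 95% interval of -0.19 to 1.45 that holds 0. Between DT SD and CTRL SD, 3 of the 10 genes and 17% of all genes did not overlap. STZ SD against CTRL SD gave -0.67 (Chgb) to 0.17 (Chga), again with 0 called by edgeR, 0 at an unadjusted p below 0.05 and 0 by DESeq2, and with 0.00568% of all genes called. Both comparisons share the CTRL SD libraries. Between 10 weeks and day 30 after DT, DT SD against DT 30 DPA gave -0.54 (Pcsk1n) to 0.48 (Pcsk1) on the log2 scale, with 0 called by edgeR, 0 at an unadjusted p below 0.05, 0 by DESeq2 and 0.0568% of all genes called.

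The 2 ways of ablation were set against each other on each diet. In STZ SD against DT SD, where 2.56% of all genes were called, edgeR called 0 of the 10. By unadjusted p 2 of the 10 were below 0.05, as were 19.4% of all genes. Pcsk1 had 86.9, 208, 126 and 256 CPM in STZ SD and 429, 302, 387 and 341 CPM in DT SD libraries, which did not overlap, with a difference of -1.11 on the log2 scale (SE 0.37, adjusted p = 0.0879). DESeq2 called it at -1.11 (adjusted p = 0.0337). Between STZ SD and DT SD, 2 of the 10 genes and 8.09% of all genes did not overlap. Chgb had 657, 996, 669 and 1209 CPM in STZ SD and 2438, 1270.4, 2779 and 1182 CPM in DT SD libraries, overlapping by 1 library of STZ SD, with -1.12 (SE 0.40, adjusted p = 0.112). Chga and Pcsk1n were the 2 genes above 0, at 0.32 and 0.19 without passing. The beta-cell marker sum was 63153 to 194513 CPM in STZ SD and 232528 to 254724 CPM in DT SD libraries. Enterocyte markers summed to 54.1 to 19438 CPM in STZ SD and 48.3 to 57.7 CPM in DT SD libraries, with 2 of 10 called higher, and the part of either cell type in the difference was not tested. Without the libraries rich in enterocyte RNA, which leaves STZ SD replicates 2 and 3, edgeR called 0 of the 10, at -1.21 (Chgb) to 0.41 (Chga) on the log2 scale, and 0.0162% of all genes. With all libraries, among the other processing enzymes Pcsk5, another proprotein convertase gene, was called higher (log2 fold change 2.87, adjusted p = 0.0379). In STZ HFD against DT HFD, log2 fold changes ran between -0.16 (Pcsk2) and 0.51 (Chga), with 0 called by edgeR, 0 below 0.05 unadjusted and 0 by DESeq2, and 0.341% of all genes called. Without STZ HFD replicate 4, the library rich in acinar RNA, they ran between -0.04 (Pcsk2) and 0.64 (Chga), with 0 of the 10 and 0.00567% of all genes called.

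At 10 weeks after DT, all 10 genes had log2 fold changes below 0 on the HFD against the SD diet, from -0.54 (Pcsk1n) to -1.60 (Scg2). Of these edgeR called 7, at -1.003 (Pcsk2) to -1.60 (Scg2). The 7 were both convertases, Cpe, Scg5 and the granins Chgb, Scg2 and Scg3. Of all genes tested 23.5% were called in either direction and 8.46% were called lower in DT HFD. The groups did not overlap for 8 of the 10 genes and for 39.1% of all genes. The median log2 fold change was -1.13 over the 10 genes and -0.01 over all genes. Pcsk1n, Chga and Ptprn, the 3 genes whose group mean was highest in DT 30 DPA rather than DT SD, did not pass by edgeR. By unadjusted p 9 of the 10 were below 0.05, as were 38.9% of all genes. DESeq2 called 9 of the 10, Chga and Ptprn among them, and 29.9% of all genes.

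Pcsk1 had 157, 55.1 and 162 CPM in DT HFD libraries, against 429, 302, 387 and 341 CPM in DT SD libraries, a difference of -1.55 on the log2 scale (SE 0.41, adjusted p = 0.0114). For Pcsk2 there were 1873, 775 and 1126 CPM in DT HFD and 2622, 2118, 3445 and 1904 CPM in DT SD libraries (log2 fold change -1.003, SE 0.35, adjusted p = 0.0407). The margin between groups was wide for Pcsk1 and narrow for Pcsk2, where DT HFD replicate 1 came close to DT SD replicate 4. Cpe had 1457, 615 and 975 CPM in DT HFD and 2581, 2089.7, 2915 and 2097 CPM in DT SD libraries, for a difference of -1.25 on the log2 scale (SE 0.36, adjusted p = 0.0165). Scg5 had 434, 181 and 209.9 CPM in DT HFD and 530.2, 432, 823 and 423 CPM in DT SD libraries (log2 fold change -1.01, SE 0.35, adjusted p = 0.0387), and here DT HFD replicate 1 lay inside the DT SD range. Pcsk1n overlapped too, with 650.2, 246 and 292 CPM in DT HFD and 534, 484, 811 and 475 CPM in DT SD libraries (log2 fold change -0.54, SE 0.36, adjusted p = 0.268).

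The granin with the largest difference was Scg2, with 1889.7, 792 and 1342 CPM in DT HFD and 3904, 3356, 5082 and 3869 CPM in DT SD libraries (log2 fold change -1.60, SE 0.40, adjusted p = 0.00862). Scg3 had 656, 269 and 455 CPM in DT HFD and 1187, 1097, 1373 and 1095 CPM in DT SD libraries (log2 fold change -1.37, SE 0.38, adjusted p = 0.0128). Neither granin's groups overlapped, and the lowest DT HFD library was replicate 2 for both. Chgb had 1104, 405 and 663 CPM in DT HFD and 2438, 1270.4, 2779 and 1182 CPM in DT SD libraries (log2 fold change -1.41, SE 0.45, adjusted p = 0.0259), with DT SD replicates 1 and 3 far above replicates 2 and 4. Chga had 4057, 2054 and 2848 CPM in DT HFD and 4929.9, 6594, 5976 and 5054 CPM in DT SD libraries, for a difference of -0.92 on the log2 scale (SE 0.40, adjusted p = 0.0924) and no overlap. Ptprn had 174, 74.3 and 145 CPM in DT HFD and 285, 224, 305 and 199 CPM in DT SD libraries (log2 fold change -0.95, SE 0.37, adjusted p = 0.0621), also with no overlap. DT HFD replicate 1 was the highest and replicate 2 the lowest of its group for every gene but Pcsk1, which was highest in replicate 3 and lowest in replicate 2.

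Single libraries moved this count. Without DT HFD replicate 2, edgeR called 0 of the 10 and 0 genes in all, though log2 fold changes of the 7 genes stayed between -0.75 and -1.33. Without DT HFD replicate 3 it called 3 of 10 and 14.6% of all genes, without DT SD replicate 3 it called 3 and 11.2%, and without DT SD replicate 1 it called 4 and 12.8%. A fit of the 2 groups alone called 4 and 21.2%. Without the libraries rich in enterocyte RNA, which takes out DT HFD replicate 1, all 10 were called, as were 35.0% of all genes. Markers moved with the genes: beta-cell markers summed to 30080.3 to 111254 CPM in DT HFD and 232528 to 254724 CPM in DT SD libraries, with 7 of 10 called lower, and alpha-cell markers to 17466 to 37770.2 CPM in DT HFD and 21714 to 68010.0 CPM in DT SD libraries, with 0 of 8 called. Lymphocyte markers summed to 1158 to 2053 CPM in DT HFD and 70.2 to 711 CPM in DT SD libraries, with 4 of 8 called higher. Acinar markers summed to 8623 to 25910.4 CPM in DT HFD and 48376 to 205558 CPM in DT SD libraries, with 1 of 14 called lower. Enterocyte markers ranged over 14.4 to 2589 CPM in DT HFD and 48.3 to 57.7 CPM in DT SD libraries, with 5 of 10 called higher. The part of these cells in the result was not tested.

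In the same comparison 16 of 24 other granule proteins were called lower and 0 higher (median -1.06). They included Nucb2, the nesfatin precursor gene (-1.51, adjusted p = 0.00515), and Sytl4, which encodes the granule protein granuphilin (-1.45, adjusted p = 0.0151). Of 20 other processing enzymes 7 were called lower and 3 higher (median -0.30). Ctsl (-0.92, adjusted p = 0.00348) and Qpct, the glutaminyl cyclase gene (-1.29, adjusted p = 0.00551), led the falls. Among 11 tested transcription factors 1 was called lower, Pax6 (-0.96, adjusted p = 0.0475), and 2 higher, Rest (1.47, adjusted p = 0.00459) and Creb1 (0.57, adjusted p = 0.0091), whose product binds the cyclic AMP response element. Rest averaged 47.2 CPM in DT HFD and 17.0 CPM in DT SD libraries. Of 8 hormone precursors 3 were called lower, Iapp (-1.50, adjusted p = 0.0165), Ins1 (-1.74, adjusted p = 0.0234) and Ins2 (-1.58, adjusted p = 0.0473).

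**Figure D3:**
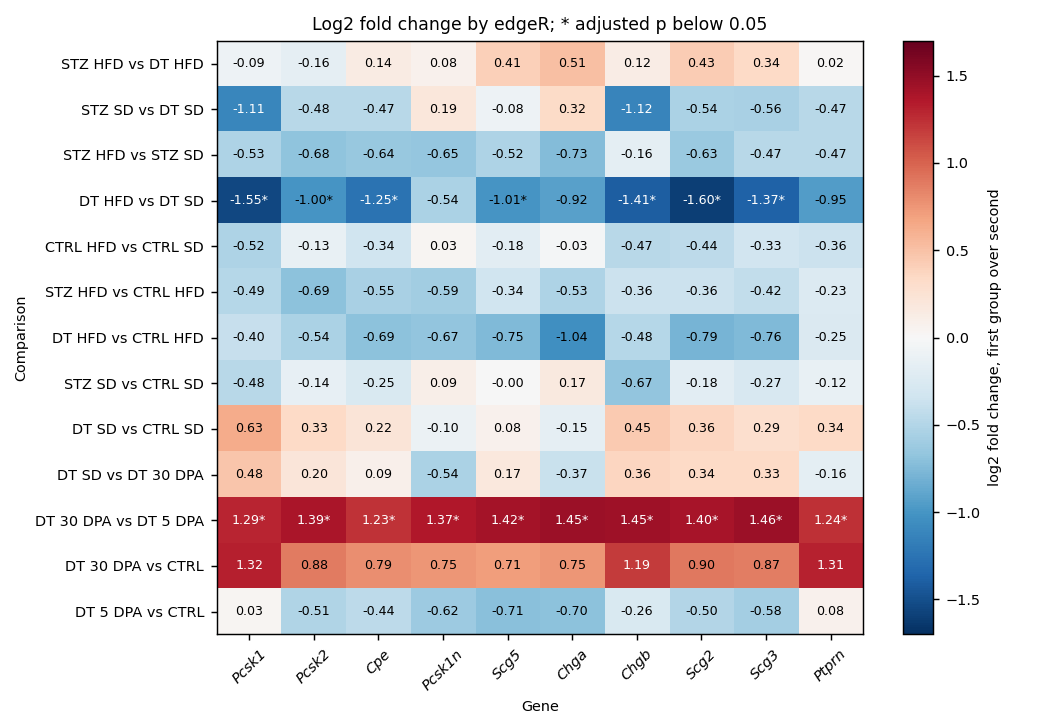
Log2 fold change (first group over second) of each gene in the 13 two-group comparisons, with the value in each cell. Asterisks mark adjusted p below 0.05, which are all 10 genes in DT 30 DPA against DT 5 DPA and 7 in DT HFD against DT SD.

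The other comparisons of diet, and those of ablation against CTRL on the HFD diet, called none of the 10. In untreated mice, CTRL HFD against CTRL SD gave log2 fold changes of -0.52 (Pcsk1) to 0.03 (Pcsk1n), with 0 called by edgeR, 0 at an unadjusted p below 0.05, 0 by DESeq2 and 0% of all genes called. Pcsk1 had 148, 165, 152 and 191 CPM in CTRL HFD and 226, 244 and 236 CPM in CTRL SD libraries, which did not overlap, and the 95% interval of its log2 fold change was -1.33 to 0.28. Between these groups, 4 of the 10 genes and 7.7% of all genes did not overlap. In STZ HFD against STZ SD all 10 were below 0 (median -0.58), with 0 called by DESeq2 and 0.136% of all genes called by edgeR. By unadjusted p 1 (Pcsk2) was below 0.05, as were 13% of all genes. In STZ HFD against CTRL HFD all 10 were below 0 as well (median -0.45), with 0 called by DESeq2 and 0.471% of all genes called by edgeR. By unadjusted p 1 (Pcsk2, log2 fold change -0.69, SE 0.32, adjusted p = 0.336) was below 0.05, as were 13.7% of all genes. In DT HFD against CTRL HFD all 10 were below 0 (median -0.68), led by Chga with 4057, 2054 and 2848 CPM in DT HFD and 8401, 5798, 4192 and 6131 CPM in CTRL HFD libraries (log2 fold change -1.04, SE 0.40, adjusted p = 0.361). By unadjusted p, 3 of the 10 (Chga, Scg5 and Scg3) were below 0.05, as were 11.9% of all genes. DESeq2 called 0 of the 10, and edgeR called 0.00568% of all genes. Without the libraries rich in enterocyte RNA, edgeR called Pcsk1n (-1.23, adjusted p = 0.0423) and Scg5 (-1.25, adjusted p = 0.0267), and 4.44% of all genes. Without STZ HFD replicate 4, log2 fold changes of STZ HFD ran between -0.55 (Pcsk2) and -0.09 (Chgb) against CTRL HFD, where 0.0454% of all genes were called, and between -0.58 (Chga) and 0.10 (Chgb) against STZ SD, where 0% were, with 0 of the 10 called in either. These 4 comparisons share libraries, so their signs are not independent of each other.

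Whether diet changed the effect of ablation was asked with the interaction. For DT all 10 interaction terms were below 0, at -0.57 (Pcsk1n) to -1.15 (Scg2) on the log2 scale with a median of -0.90, against 0.0026 over all genes. None passed: adjusted p was 0.312 to 0.552, DESeq2 called 0 and 0% of all genes were called. By unadjusted p 1 gene (Scg2) was below 0.05, as were 15.6% of all genes. Without the libraries rich in enterocyte RNA, edgeR called 0 of the 10 and 1.89% of all genes. The DT terms then ran between -1.49 (Scg2) and -0.86 (Ptprn). For STZ the terms ran between -0.70 (Chga) and 0.31 (Chgb), with 0 called by edgeR, 0 below 0.05 unadjusted, 0 by DESeq2 and 0% of all genes called. The 7 genes called lower on HFD after DT are not shown to respond to diet differently from untreated islets. The standard error of these terms, 0.49 to 0.61 for DT, is larger than that of a single comparison.

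Ratios of counts within a library do not depend on scaling, and were taken for 4 pairs that work together. They are ratios of counts rather than of transcripts, since the genes differ in length. Pcsk1n counts stood at 1.24, 1.60, 2.10 and 1.39 times those of Pcsk1 in DT SD libraries and at 3.48, 2.30 and 2.12 times in CTRL SD libraries. In DT 30 DPA the ratio was 2.38, 4.48, 3.74 and 2.68, in DT 5 DPA 3.25, 3.17, 3.29 and 2.46 and in CTRL 4.72, 5.63 and 4.52. The 4 DT SD libraries, at 2.10 or below, were the lowest of all groups except for part of DT HFD (lowest ratio 1.81), and the 3 CTRL libraries were at 4.52 or above. DT SD lay below DT 30 DPA (-1.05 on the log2 scale, exact two-sided permutation p = 0.0286, adjusted p = 0.248) and STZ SD lay above DT SD (1.41 on the log2 scale, exact two-sided permutation p = 0.0286, adjusted p = 0.248). In both of these comparisons the groups did not overlap.

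Chga counts stood at 6.03, 9.89, 7.67 and 7.68 times those of Chgb in STZ SD libraries, 2.02, 5.19, 2.15 and 4.28 times in DT SD libraries and 5.16, 4.39 and 3.86 times in CTRL SD libraries. STZ SD did not overlap with either of the other groups, and its difference from DT SD was 1.30 on the log2 scale, exact two-sided permutation p = 0.0286, adjusted p = 0.248. The ratio of Pcsk1 to Pcsk2 was 0.0719, 0.0910, 0.0931 and 0.106 in STZ SD and 0.164, 0.143, 0.112 and 0.179 in DT SD libraries (-0.71 on the log2 scale, exact two-sided permutation p = 0.0286, adjusted p = 0.248). The ratio of Scg5 to Pcsk2 ranged over 0.199 to 0.492 in STZ SD and 0.241 to 0.497 in STZ HFD libraries. In DT SD libraries it ranged over 0.202 to 0.239. Over 52 ratio tests 4 had p below 0.05, each at 0.0286, the smallest that 4 against 4 libraries allow. Comparisons of 3 against 4 libraries allow no exact permutation p below 0.0571. After the Benjamini-Hochberg adjustment 0 passed, and the smallest adjusted p was 0.248. With these limits no ratio could have passed over 52 tests, whatever its values, so that outcome decides nothing about the ratios.

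**Figure D4:**
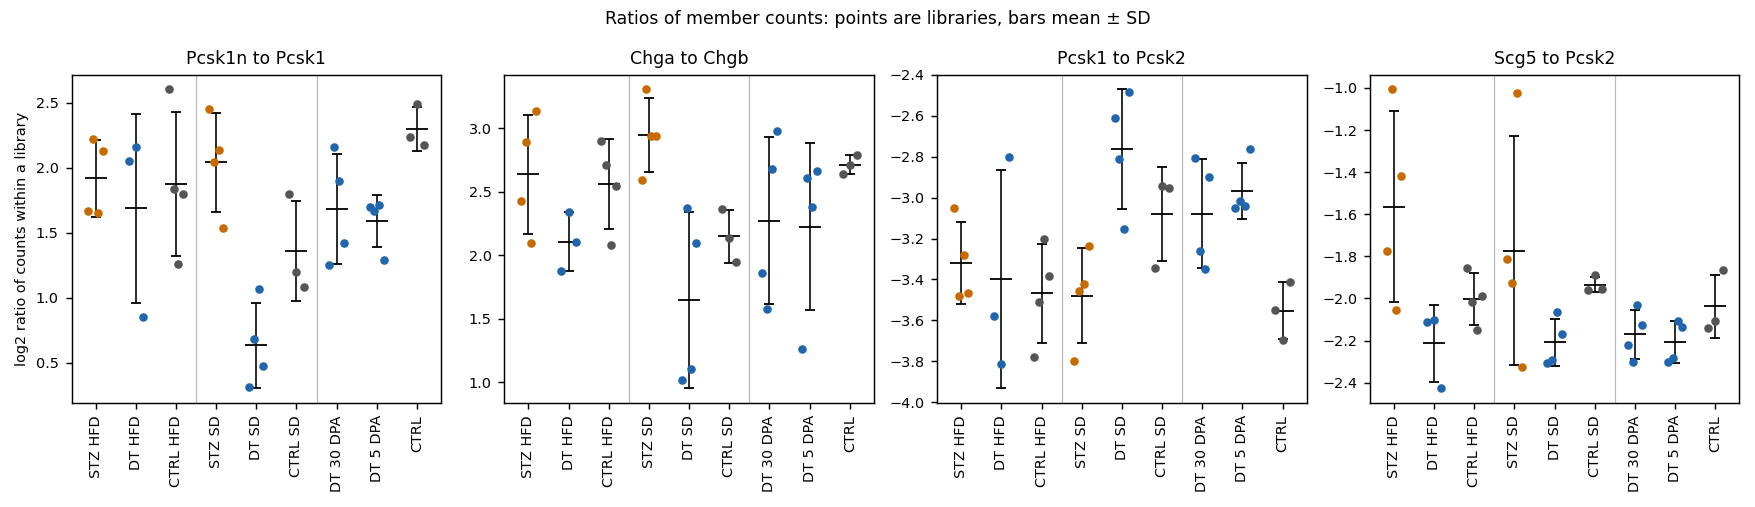
Log2 ratio of counts within a library for 4 pairs of genes. Points are libraries, orange for STZ, blue for DT and grey for CTRL, and bars are the group mean ± SD. DT SD libraries have the lowest mean ratio of Pcsk1n to Pcsk1, 0.64 on the log2 scale, and STZ SD libraries the highest mean ratio of Chga to Chgb, 2.94.

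The 10 genes varied together across the 33 libraries. Pearson's r of log2 CPM over the 45 pairs ran from 0.712 (Pcsk1 with Pcsk1n) to 0.989 (Scg2 with Scg3), with a median of 0.891. After the group means were taken out, the lowest r was 0.564 and the median 0.870, so libraries of the same group shared the pattern too. Libraries share their content of islet cells and their scaling, and these values are descriptions. The mean standardised level of the 10 had r = 0.932 with the mean log2 CPM of beta-cell markers, 0.832 with alpha-cell markers and 0.533 with delta-cell markers. It had 0.587 with neuron and 0.406 with acinar markers, and -0.574 with lymphocyte, -0.572 with macrophage and -0.359 with enterocyte markers. Among 8281 genes outside the list whose mean log2 CPM was 4 or more, the most alike in pattern were Sez6l2 (r = 0.983), Maged1 (0.978), Lrp11 (0.977), Tspan7 (0.975), Nell1 (0.975), Syt13 (0.973), Tceal3 (0.972) and Fbxl16 (0.972). For Pcsk1 alone they were Gfpt1 (0.957), Nell1 (0.952), G6pc2 (0.946) and Car10 (0.942). For Pcsk2 alone they included Sez6l2 (0.978), Lrp11 (0.966) and Pnmal2 (0.963).

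**Figure D5:**
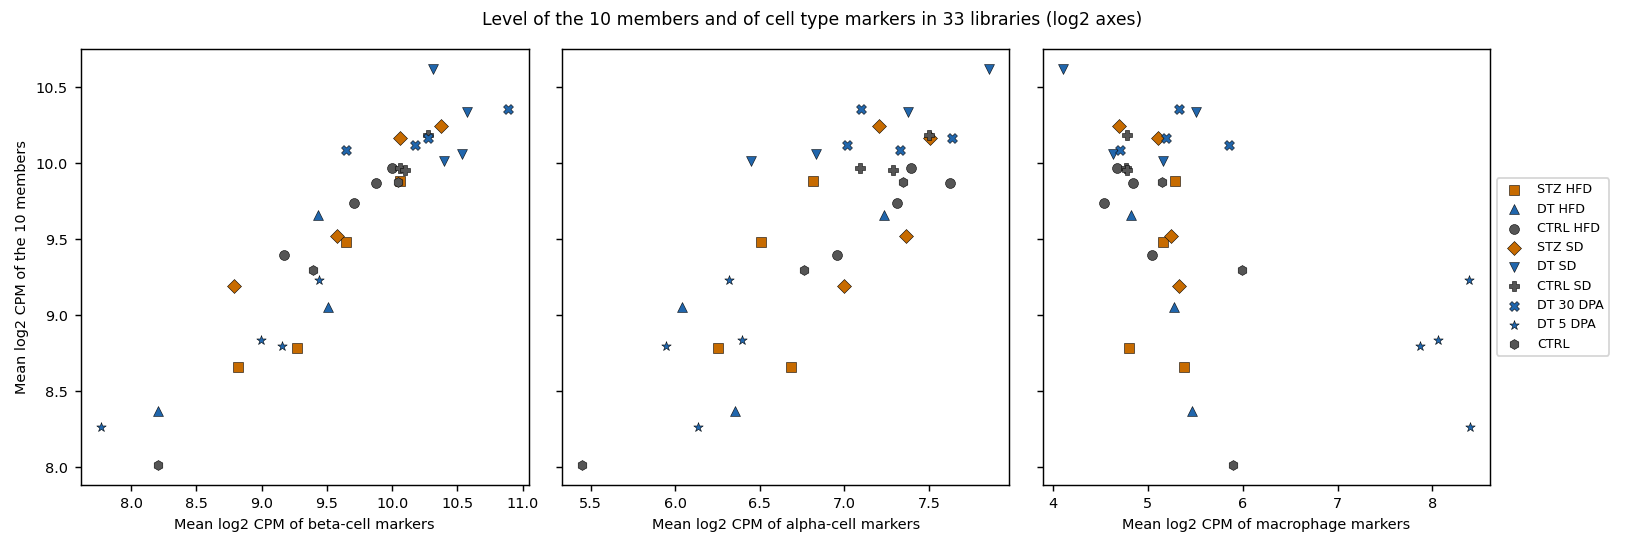
Mean log2 CPM of the 10 genes (vertical axis) against the mean log2 CPM of beta-cell, alpha-cell and macrophage markers (horizontal axes) in 33 libraries, by group. Libraries with more beta-cell marker RNA have more of the 10 genes, and the 4 DT 5 DPA libraries stand apart at high macrophage levels.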

How the data were processed

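Bulk RNA-seq of whole islets was deposited as raw counts per gene and as TPM, in 34 libraries. Per the file headers the authors' count columns hold total counts, and their TPM columns are deposited values per transcript length. The build was mm10, per the submitters' processing notes. The aligner, the counter, the annotation and any use of strand were not given in the sources used here. Replicates were not pooled in the deposited columns.

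The 10 genes and the lists of other pathway and marker genes were chosen with earlier results of these data known. Counts as deposited were scaled by TMM, filtered with filterByExpr (count minimum 10, total minimum 15) and fitted with edgeR's quasi-likelihood test (robust, 33 libraries, group as the only factor), with Benjamini-Hochberg adjustment over all tested genes and calls at an adjusted p below 0.05. Log2 CPM used a prior count of 2. edgeR 4.0.16, limma 3.58.1 and DESeq2 1.42.0 ran in R 4.3.3, and SciPy 1.17.1 in Python 3.11.15. The fit was checked on simulated counts. Of each pathway list, up to 4 called genes with the smallest adjusted p in a comparison could be named. The nearest genes were the 8 most alike in pattern (4 for Pcsk1 and for Pcsk2 alone). Some genes that these rules name are not reported here. Log2 ratios of counts were tested with exact two-sided permutation tests. Depth was 11083117 to 18918348 counts per library. No 2 libraries of a group held the same counts within sampling noise (lowest chi-square per degree of freedom 27.3). Alternatives were other scaling, filters, test, samples in the fit, a replicate block and libraries left out. Promoter sequences are RefSeq's on GRCm38.p6, gene positions GENCODE M21's, and 48349 of 48709 gene IDs matched that annotation. One library whose labels disagree entered no comparison.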

Additional observations from a re-analysis of the deposited data

Results flagged for a closer look

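Log2 fold changes were above 0 for 8 of the 10 genes in DT SD against CTRL SD. In DT HFD against CTRL HFD they were below 0 for all 10. A stricter rule held for 4 of the 10 genes. Every DT HFD library lay below the CTRL HFD mean, and every DT SD library lay above the CTRL SD mean. The share of all genes that meet this rule was not counted. The 10 genes also varied together across libraries (median r 0.891), so the 4 are not separate observations. On the log2 scale, the DT effect on HFD minus that on SD was -1.03 for the convertase gene Pcsk1 (SE 0.56, adjusted p = 0.355) and -0.91 for the carboxypeptidase gene Cpe (SE 0.50, adjusted p = 0.356). It was -1.15 for the granin gene Scg2 (SE 0.55, adjusted p = 0.312) and -1.04 for Scg3 (SE 0.52, adjusted p = 0.321). The difference itself was tested as an interaction with edgeR's quasi-likelihood test, and did not pass for any of the 4. Of 60 sets of 4 libraries, 1 per gene and group of 4, none held a library far from the others by Dixon's criterion.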

How the results depend on the processing

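All 10 genes remained called in DT 30 DPA against DT 5 DPA under every alternative but the one on enterocyte RNA below, with any 1 library left out too. In DT HFD against DT SD, edgeR called 7 of 10, against 9 by DESeq2. It called 4 in a fit of the 2 groups alone and 0 to 9 with 1 library left out. DT 30 DPA against CTRL gave 0 called, against 3 with DESeq2 and 0 to 9 with 1 library left out. DT 5 DPA against CTRL gave 0, against 0 to 1 with 1 library left out, and STZ SD against DT SD gave 0, against 1 with DESeq2. Leaving out the libraries with more than 1000 CPM of enterocyte markers was chosen after seeing the data. It gave 0 called in DT 30 DPA against DT 5 DPA, where 10 were called with all libraries, and 2 in DT HFD against CTRL HFD, where none was called with all. It gave 10 in DT HFD against DT SD, where 7 were called with all. The cause of these changes was not tested. No called gene changed sign. Of the 150 values of a gene in a comparison, all kept their side of the threshold with DESeq2 size factors, with hormone genes and the 10 genes left out before scaling and with a stricter filter, and 149 with no filter. DESeq2's test moved 6 past the threshold.

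The count over all genes moved more than the members did. DESeq2 called more genes in each of the 15 comparisons. In DT 30 DPA against CTRL edgeR called 41 genes, against 1831 with DESeq2, 259 with a stricter filter, 72 with size factors and 1 with no filter. In STZ SD against DT SD it called 451, against 1328 with DESeq2, 119 with no filter and 0 in a fit of the 2 groups alone. In STZ HFD against CTRL HFD it called 83, against 485 with DESeq2 and 20 with no filter, and in STZ HFD against DT HFD 60, against 676 and 5. DT 5 DPA against CTRL gave 949, against 320 in a fit of the 2 groups alone. Without the libraries rich in enterocyte RNA, edgeR called 349 genes in the interaction of DT and HFD, against 0 with all libraries. It called 605, against 60, in STZ HFD against DT HFD, and 229, against 83, in STZ HFD against CTRL HFD. In DT 30 DPA against CTRL it called 0, against 41.

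The replicate numbers in the titles were used as a replicate block. Deviations of same-numbered libraries from their group means had a median correlation of 0.0109 over 115 pairs, with 37 above 0.1. The median was 0.0029 over 368 pairs with other numbers. The main fit did not take the numbers to pair samples, and these values do not decide whether they do. With the block 10 genes were called in DT 30 DPA against DT 5 DPA and 7 in DT HFD against DT SD, as without it, and 0 in each other comparison. Over all genes the block gave 5105, against 5371 without it, in DT 30 DPA against DT 5 DPA, and 3861, against 4136, in DT HFD against DT SD. Of 33 libraries 14 correlated best with one of their own number. The share to expect without pairing was not worked out. DT SD and DT 30 DPA did not overlap in the ratio of Pcsk1n to Pcsk1. Leaving out any single library of these groups thus fixes the exact two-sided permutation p at 0.0571. That is the smallest that 3 against 4 libraries allow, so it decides nothing about how stable the difference is. The effect of depth was not tested.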

Other observations

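One library has a title that places it in the CTRL HFD group and a treatment label of DT, so it was left out of every group. It held 14288356 counts. With this library included in the scaling, its levels were 128 CPM of Pcsk1, 831 of Pcsk2, 766 of Cpe, 270.4 of Pcsk1n and 236 of Scg5. Its granin levels were 3184 CPM of Chga, 526 of Chgb, 1268 of Scg2 and 419 of Scg3, and it had 181 CPM of Ptprn. On the same scaling the 4 CTRL HFD libraries ranged over 148 to 192 CPM of Pcsk1, 4207 to 8431 of Chga and 131 to 175 of Ptprn. The library lay below the lowest of them for every gene but Ptprn, for which it lay above the highest. On the scaling without this library, the 3 DT HFD libraries ranged over 55.1 to 162 CPM of Pcsk1, 2054 to 4057 of Chga and 74.3 to 174 of Ptprn. The library lay inside the DT HFD range for every gene but Ptprn, for which it lay above. Which of its labels holds was not tested.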
